A study of Mus musculus with 16 samples.

Results

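Kinesin motor genes were followed in a comparison of 2 ways of labelling 1 and the same RNA. Their members were all probe sets on the array whose only annotated gene symbol is a kinesin name of the form Kif with a number, or Kifc with a number. This rule gave 103 probe sets of 40 genes, of 45101 probe sets in the table. The RNA was total RNA from a culture of E14tg2a, a mouse embryonic stem cell line that grows without feeder cells. On 8 amplified arrays, RNA diluted to 10 pg, about what a single cell holds, was reverse transcribed and its cDNA amplified by PCR in separate reactions (the V1V3 method). The 8 nonamplified arrays received 5 µg of the undiluted RNA, labelled without PCR. By the design all 16 arrays thus carry the same RNA of 1 line, the replicates are technical, and p-values measure the spread between technical replicates. The question is how the measured level of each gene differs between the 2 groups. The groups differ both in the amount of RNA and in the PCR, whose effects cannot be told apart. Words such as "after amplification" stand for both below. The RNA is from many cells, so in a level fewer cells of a type and less RNA per cell cannot be told apart.

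Kinesins are ATP-driven motor proteins that walk along microtubules or take microtubule ends apart. One set of them works in the dividing cell, where they build the bipolar spindle, move chromosomes and position the cleavage furrow. Another set carries vesicles, mitochondria, endosomes and, inside cilia, building material of the cilium. Embryonic stem cells divide fast, and several transport kinesins are best known from neurons, which these cells are not. Mitotic kinesins (26 probe sets of 13 genes), transport kinesins (59 probe sets of 17 genes) and the remaining members (18 probe sets of 10 genes) are described apart. Kif2a is among the remaining members because it acts both on spindles and in neurons.

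The promoters of these genes, which the choice of members did not use, are shown first, because the motifs of cell cycle genes were found more often in the mitotic list; this is a description without a test. Genes expressed late in the cell cycle often carry the motif TTTGAA, known as the cell cycle genes homology region, close to the transcription start, and a CCAAT box upstream of it. RefSeq windows of 300 bases, 250 before to 50 after the start, were held for 32 of the 40 genes (assembly GRCm38.p6), and both strands were searched, so that TTCAAA and ATTGG count as well. Matches of the 2 motifs can share a few end letters. TTTGAA was found in 10 of 12 mitotic kinesin genes with a window, in 1 of 11 transport kinesin genes and in 2 of 9 remaining genes, and in 17.9% of all 32851 windows. CCAAT was found in 8 of 12, 3 of 11 and 4 of 9 genes, and in 37.4% of all windows. Counted from the transcription start to the first base of the match nearest to it, TTTGAA lay at −19 in Kif11 and Kif15, at −17 in Kif22, at −103 in Kif2c and at −228 in Kif14. In the other mitotic genes with a match it lay after the start, at 3 in Kif18b, 7 in Kif20b, 2 in Kif23, 19 in Kif4 and 1 in Kifc1. The CCAAT box of Kif14, at −92, was nearer to the start than its TTTGAA. In Kif18a and Kif2b TTTGAA was not in the window, and the transport gene with it was Kif1a. Bases upstream of the start are shown for 3 mitotic kinesins and for the transport kinesin Kif3a, which has a CCAAT box alone, with both motifs in capitals. They lie at chr19:37376222-37376381 (plus strand) for Kif11, chr7:127042421-127042580 (minus strand) for Kif22, chr4:117178773-117178932 (minus strand) for Kif2c and chr11:53567209-53567368 (plus strand) for Kif3a.
Kif11: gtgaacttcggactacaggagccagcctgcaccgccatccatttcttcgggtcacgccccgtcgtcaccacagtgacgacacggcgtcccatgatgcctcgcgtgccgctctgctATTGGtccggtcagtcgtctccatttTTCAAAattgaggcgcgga
Kif22: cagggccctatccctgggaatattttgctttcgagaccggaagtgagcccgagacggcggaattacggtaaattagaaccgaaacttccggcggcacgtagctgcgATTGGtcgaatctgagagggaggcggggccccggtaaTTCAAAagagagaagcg
Kif2c: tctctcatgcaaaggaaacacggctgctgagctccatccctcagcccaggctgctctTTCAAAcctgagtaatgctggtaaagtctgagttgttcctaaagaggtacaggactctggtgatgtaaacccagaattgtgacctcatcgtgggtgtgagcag
Kif3a: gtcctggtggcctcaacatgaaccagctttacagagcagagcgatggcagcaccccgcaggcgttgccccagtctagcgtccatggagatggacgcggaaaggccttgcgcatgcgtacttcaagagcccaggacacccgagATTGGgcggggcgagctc
A match of letters is a description and not evidence that a factor binds there.

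Median intensity over all probe sets was 33.9 to 36.7 on amplified and 49.7 to 53.8 on nonamplified arrays, on the linear scale as deposited, where the lowest listed value is 1. With arrays, precision is limited by their number. The listed markers of embryonic stem cells were bright, with all 8 tested and a summed intensity of 29004 to 30470 on nonamplified and 38074 to 40746 on amplified arrays. Of these 8, 4 were higher and 3 lower after amplification: Utf1 had the largest gain (mean 1814 to 8761), while Nanog fell from 1776 to 276, and Esrrb and Pou5f1 were lower by −1.18 and −0.41 on the log2 scale. Summed markers of fibroblasts (7 genes) stayed between 190 and 321 on all arrays. Among 7 neuronal markers, Snap25 and Nefm averaged 7.75 and 10.3 on nonamplified arrays, whereas Stmn2 and Nefl averaged 2325 and 850.0. The summed neuronal markers were 3109 to 3482 on nonamplified and 1468 to 2928 on amplified arrays, and their part in the values of transport kinesins was not tested. Markers of motile ciliated cells (4 genes with a probe set) summed to 210 to 267 without amplification and to 926 to 1294 with it, mainly through Foxj1, and endoderm markers (6 genes) to 164 to 254 and 384 to 511. Trophoblast markers (5 genes) summed to 574 to 759 and 194 to 1395. Tfap2c alone averaged 570 without amplification and ranged from 1 to 1224 with it. Cdx2, Elf5 and Krt7 averaged 13.3 to 18.9 without amplification, and Eomes 76.0. All of these groups were measured on the same RNA.

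Kinesin probe sets were mostly lower after amplification. Of the 103 probe sets, 76 from 33 genes were bright enough to be tested, that is, their mean log2(intensity + 16) over the 16 arrays lay above the 40th percentile. Of these 76, 9 were higher and 47 lower in the amplified group at an adjusted p under 0.05, and 20 did not pass. Over all 27022 tested probe sets 57.5% were called, 24.7% higher and 32.8% lower. The median log2 fold change, amplified minus nonamplified, was −0.70 for the kinesins and −0.17 for all tested probe sets. At least 2-fold, 2 kinesin probe sets were higher and 31 lower, where the table as a whole has 12.5% and 22.1%. The 2 groups of arrays did not overlap at 3 kinesin probe sets that were higher and 26 that were lower, against 14.8% and 18.8% of all tested probe sets. The filter bears on this count, because 25 of the 76 passed it through their nonamplified values alone, and 23 of those 25 were called lower. The balance also moved with the scaling of the arrays. Of the called kinesin probe sets, 16.1% were higher as deposited, 19.6% under quantile normalization, 28.9% after median centring and 3.77% scaled on the hybridization controls. For all called probe sets these shares were 43.0%, 50.7%, 63.2% and 22.5%, and the median log2 fold changes over all tested probe sets were −0.17, −0.030, 0.24 and −0.59. The kinesin medians in the same order were −0.70, −0.35, −0.30 and −1.12.

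**Figure D1:**
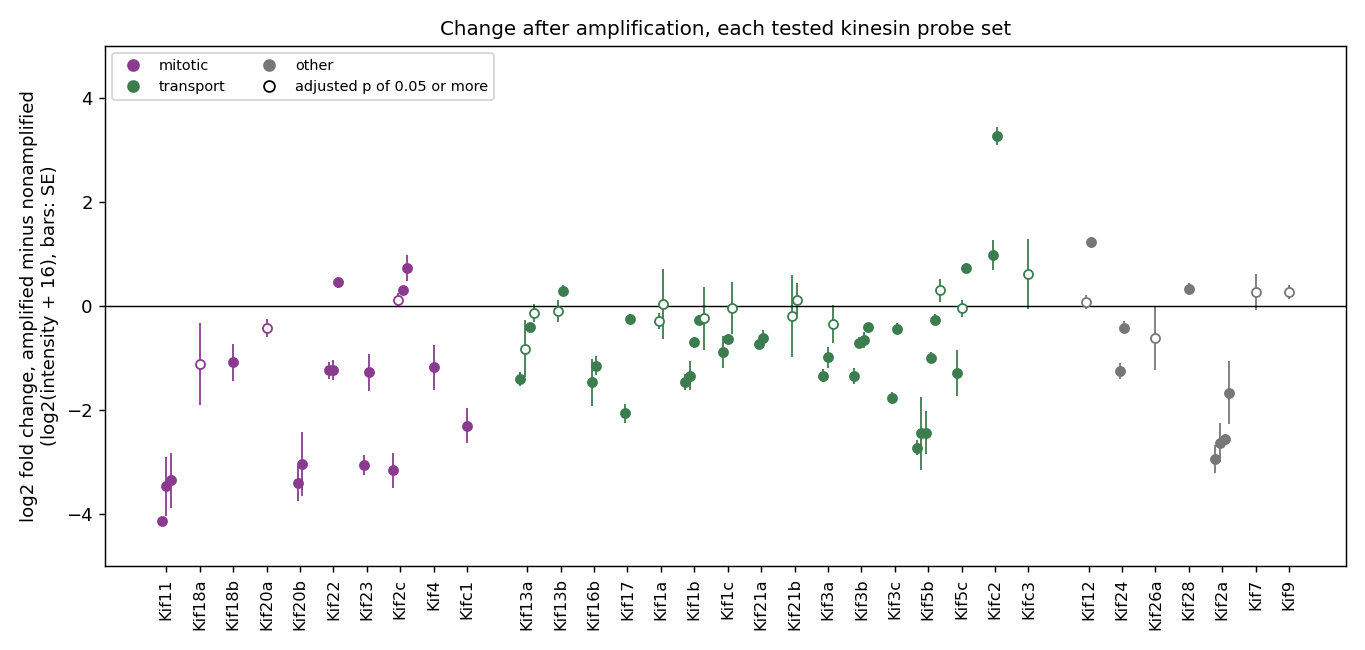
Log2 fold change (amplified minus nonamplified, on log2(intensity + 16)) of each of the 76 tested kinesin probe sets, grouped by gene, with bars for the SE and open circles for probe sets that did not pass; 8 arrays per group. Most points lie below 0, Kif11 lowest at −4.14, and Kifc2 stands highest at 3.27.

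Mitotic kinesins fell at most of their tested probe sets. Of 26 probe sets 19 were tested, 3 were higher and 13 lower, and all 13 of the latter were at least 2-fold lower. The median log2 fold change over the 19 was −1.24, and −1.51 under quantile normalization, −0.83 after median centring and −1.66 on the hybridization controls. Of the 19, 4 passed the filter through their nonamplified values alone and had to differ: Kif11 1452314_at and 1452315_at, Kif20b 1440924_at and Kif23 1453748_a_at, all called lower. Scaled on the hybridization controls the split was 0 higher and 14 lower, under quantile normalization 1 and 14, and after median centring 4 and 11. Of the 13 lower calls, 11 held under all 3 of these scalings. Kif11, the plus-end motor that slides spindle microtubules apart to keep the spindle bipolar, was lower at each of its 3 probe sets.

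At 1452315_at, Kif11 measured 576 at the lowest, 605 at the median and 706 at the highest of the nonamplified arrays. The amplified arrays measured 17.2, 19.0 and 25.5. The groups lie far apart and the amplified values are tight, with a log2 fold change of −4.14 (SE 0.077, adjusted p = 1.83e-16). At 1435306_a_at the nonamplified arrays lay between 695 and 789 with a median of 764. The amplified arrays ran from 6.18 over a median of 56.1 to 316 (log2 fold change −3.47, SE 0.57, adjusted p = 6.07e-05). Here too the groups do not overlap, but the amplified arrays fall into 4 above 100 and 4 between 6.18 and 10.0. The remaining probe set, 1452314_at, had a log2 fold change of −3.36 (SE 0.53), with 7 of 8 amplified arrays below the lowest nonamplified one and 1 array within the nonamplified range, at 475.

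Kif20b, a motor of the midbody that acts in cytokinesis, was lower at both tested probe sets. At 1439695_a_at it measured 693, 727 and 776 (lowest, median and highest) without amplification and 8.76, 49.6 and 237 with it (log2 fold change −3.41, SE 0.34, adjusted p = 1.73e-07). The groups do not overlap. At 1440924_at the nonamplified arrays measured 221 to 274, while the amplified median was 4.33. Amplified replicate 1 alone measured 715, above all nonamplified arrays, and the other 7 measured 12.4 or less. The log2 fold change of −3.05 became −3.69 without that array. The remaining 2 probe sets of Kif20b were at 10.45 and 9.15 on nonamplified arrays on average and were not tested.

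Kif2c, known as MCAK, takes microtubule ends apart at kinetochores, and its probe sets went both ways. At 1449060_at the nonamplified arrays measured 558, 583 and 621 and the amplified arrays 7.12, 77.5 and 109. The groups are apart, with a log2 fold change of −3.16 (SE 0.34, adjusted p = 5.2e-07). At 1437611_x_at the values were 680, 701 and 708 without amplification and 459, 1362 and 1974 with it, and 7 of 8 amplified arrays were above the highest nonamplified one (log2 fold change 0.73, SE 0.25, adjusted p = 0.0208). The call at 1437611_x_at was lost under quantile normalization and when scaled on the hybridization controls. Its probe set 1454221_a_at was called higher at 0.31 (adjusted p = 0.00384), which turned to −0.12 under quantile normalization and −0.11 scaled on the hybridization controls, neither called. The probe set 1432392_at did not pass (0.12, adjusted p = 0.491), but was called higher under quantile normalization (0.50, adjusted p = 0.0031) and median centring (0.53, adjusted p = 0.003).

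Kif22, the chromokinesin Kid that pushes chromosome arms towards the spindle equator, was also called in both directions. At 1437716_x_at it measured 1633, 1974 and 2092 on nonamplified and 1780, 2959 and 3029 on amplified arrays. The ranges overlap, yet 7 of 8 amplified arrays exceeded all nonamplified ones (log2 fold change 0.45, SE 0.11, adjusted p = 0.0026). Under quantile normalization this probe set was called lower instead (−0.38, adjusted p = 0.0159), and scaled on the hybridization controls it did not pass. Its probe sets 1423813_at and 1451128_s_at fell, with log2 fold changes of −1.24 (SE 0.16) and −1.23 (SE 0.18) and no overlap. For 1423813_at the values were 413, 434 and 462 without and 112, 175 and 333 with amplification.

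Kif23, the motor of the centralspindlin complex that organises the central spindle, fell at both tested probe sets. At 1455990_at the nonamplified arrays measured 679, 727 and 739 and the amplified arrays 66.2, 270 and 978. Most of the latter are low, but 1 of 8 exceeded all nonamplified arrays (log2 fold change −1.27, SE 0.35, adjusted p = 0.0054). At 1453748_a_at the values went from 178, 213 and 251 to 1, 8.46 and 35.1, without overlap (log2 fold change −3.06, SE 0.20, adjusted p = 8.59e-10). Kifc1, a minus-end motor that bundles spindle poles, went from 223, 250 and 276 to 1, 31.0 and 101 (log2 fold change −2.30, SE 0.33). It is measured by a single probe set of type _s_at, and its relative Kifc5b, which has 1 probe set of its own, may share signal with it.

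Kif18b, which acts on astral microtubules, fell by 1.09 on the log2 scale (SE 0.35, adjusted p = 0.0148), with 6 of 8 amplified arrays below the nonamplified range and 1 above it, and did not pass after median centring (−0.68, adjusted p = 0.107). Kif4, a chromokinesin that also works on the central spindle, fell by 1.18 (SE 0.43, adjusted p = 0.0277), and did not pass without amplified replicate 4 (−1.03, adjusted p = 0.0548). The Kif4 call was also lost with a pseudocount of 1 (adjusted p = 0.0537), under quantile normalization (−0.94, adjusted p = 0.0641) and after median centring (−0.77, adjusted p = 0.142). Kif20a, which brings the chromosomal passenger complex to the central spindle, measured 641, 714 and 789 on nonamplified and 294, 528 and 997 on amplified arrays. Its log2 fold change of −0.42 did not pass (adjusted p = 0.0537). Kif20a was called lower under quantile normalization (−0.89, adjusted p = 5.29e-05) and on the hybridization controls (−0.84, adjusted p = 0.0074), and with weights per group (adjusted p = 0.0492). It also passed without amplified replicate 5 (−0.46, adjusted p = 0.0462) or 8 (−0.55, adjusted p = 0.00296).

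Kif18a, a motor that dampens chromosome movements at the metaphase plate, split the amplified arrays evenly. Its probe set 1424107_at measured 435, 471 and 490 on nonamplified arrays. On amplified arrays it measured 519.5, 1, 6.13, 136, 1123, 779, 770 and 269.9 for replicates 1 to 8. Thus 4 arrays lie above and 4 below all nonamplified arrays, and the means of 467 ± 20.5 and 451 ± 414 (SD, n = 8 each) are close. The log2 fold change was −1.11 with an SE of 0.79 (adjusted p = 0.247).

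Untested mitotic probe sets were dim. Kif14 (cytokinesis), Kif15 (a plus-end motor that backs up Kif11) and Kif2b (a microtubule depolymerase of the kinetochore) had no tested probe set, nor were 1 probe set each of Kif18a and Kif23 and 2 of Kif20b tested. These 7 probe sets averaged 3.46 to 31.0 on nonamplified and 2.71 to 35.1 on amplified arrays. Kif18a 1457895_at (mean 3.46 without and 34.3 with amplification) and Kif2b 1429333_at (7.66 and 35.1) were higher on every amplified array, without overlap. At the others the groups overlapped.

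**Figure D2:**
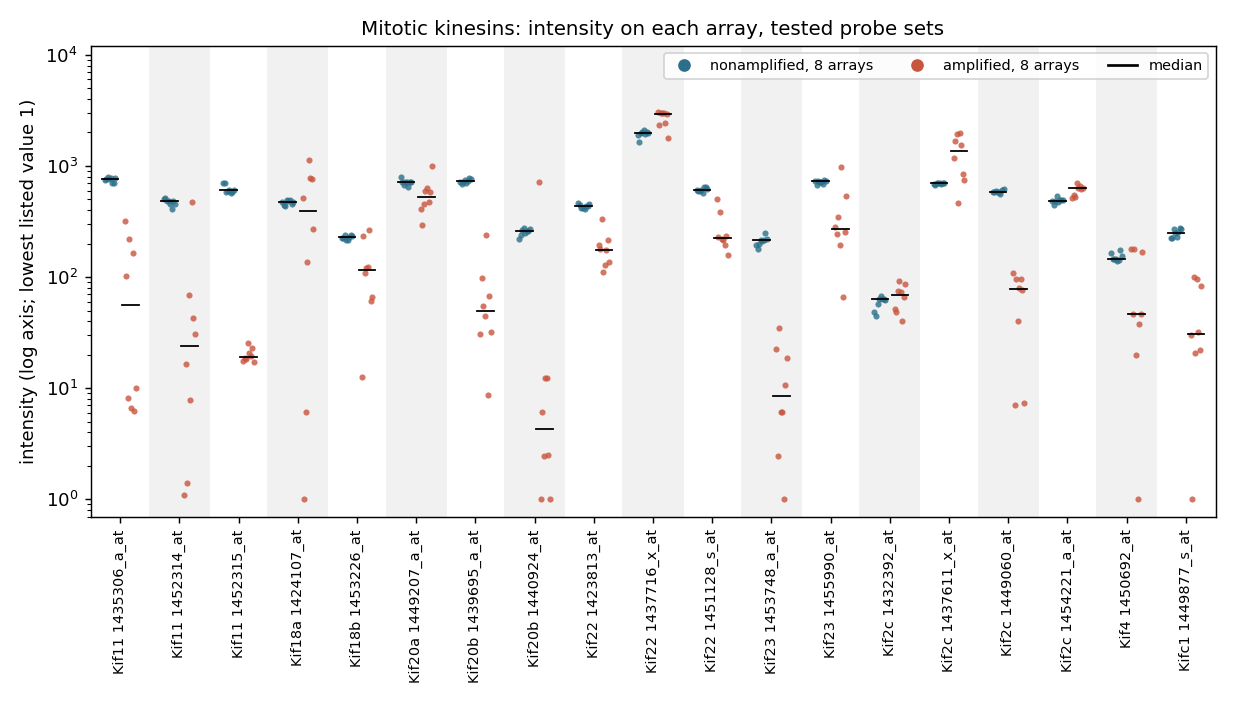
Intensity (log axis, lowest listed value 1) of the 19 tested probe sets of mitotic kinesins on each array; blue points are nonamplified arrays, red points amplified arrays, 8 each, and black lines medians. Nonamplified points form narrow groups, while the amplified points of Kif18a run from 1 to 1123 and those of Kif11 1452315_at sit tightly at 17.2 to 25.5.

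Transport kinesins were lower at most of their tested probe sets as well. Of 59 probe sets 45 were tested, 4 were higher and 28 lower, 1 and 13 of them at least 2-fold, with a median log2 fold change of −0.62. That median was −0.23 under quantile normalization, −0.22 after median centring and −1.04 on the hybridization controls. Of the 45, 17 passed the filter through their nonamplified values alone and 15 of those 17 were called lower. They include Kif13a 1451890_at, Kif16b 1429062_at, Kif17 1422762_at, Kif21a 1450738_at, Kif3c 1434947_at and Kif5c 1455266_at. Further ones are Kif1b 1423994_at, 1425270_at and 1451200_at, Kif1c 1426325_at and 1436224_at, and Kif3b 1420986_s_at and 1420987_at. The last are Kif1a 1450108_at and Kif3a 1420375_at, 1449841_at and 1455652_at. All 17 had to differ in this direction. Of all 45, 4 were higher and 18 lower under quantile normalization, 5 and 17 after median centring, and 1 and 31 scaled on the hybridization controls. Of the 28 lower calls, 17 held under all 3 scalings, and of the 4 higher calls 1 did, that of Kifc2. Among the lower calls that held, Kif17 1419827_s_at and Kif5b 1418427_at, 1418429_at, 1418430_at and 1418431_at passed the filter on both groups. The other lower calls that held were at probe sets that passed through nonamplified values alone, so they had to differ. Whether mitotic and transport kinesins differ in their fold changes was not tested, since the members were chosen with results known.

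Kif5b, the heavy chain of conventional kinesin found in nearly all cells, had 6 tested probe sets of which 5 were lower and 1 did not pass. At 1418427_at it measured 345, 361 and 401 without and 24.9, 43.2 and 69.5 with amplification, far apart (log2 fold change −2.73, SE 0.15, adjusted p = 7.79e-11). At 1418430_at the nonamplified arrays lay between 778 and 938. The amplified arrays measured 73.9, 127, 16.05, 223, 1.41, 1395, 239 and 603 for replicates 1 to 8, so 7 lie below and 1 above the nonamplified range (log2 fold change −2.45, SE 0.70, adjusted p = 0.00675). At 1418428_at the values were 514, 612 and 696 against 380, 692 and 1238, which overlap, and the log2 fold change of 0.30 did not pass (adjusted p = 0.256). That probe set turned to −0.21 under quantile normalization and −0.12 scaled on the hybridization controls, neither called, and was called higher after median centring (0.71, adjusted p = 0.00975).

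The other probe sets of Kif5b spanned the space between these. At 1418429_at the values fell from 238, 312 and 370 to 1.27, 63.0 and 134 (log2 fold change −2.44, SE 0.41, adjusted p = 7.8e-05), without overlap. The probe set 1418431_at had a log2 fold change of −0.997 (SE 0.10, adjusted p = 3.1e-07), also without overlap. The dim probe set 1453524_at had −0.26 (adjusted p = 0.0325), a call lost on leaving out any 1 of 5 arrays (adjusted p = 0.0538 to 0.0668): amplified replicate 3 or 6, or nonamplified replicate 1, 3 or 4. It was not called with weights per group (adjusted p = 0.202), nor under quantile normalization or median centring, where its sign turned. The 6 probe sets of this 1 gene thus ranged over 3.03 on the log2 scale.

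Kif5c and Kif5a are the relatives of Kif5b best known from neurons. Kif5c was called in both directions, each time at a probe set that passed the filter only through the group in which it is high, so both had to differ and the pair of calls says nothing further. At 1450804_at it went from 19.0, 23.1 and 28.8 to 40.2, 48.8 and 66.3, without overlap (log2 fold change 0.73, SE 0.097, adjusted p = 6.2e-06). Under scaling on the hybridization controls, 1450804_at did not pass. At 1455266_at it went from 58.8, 69.1 and 93.3 to 1, 8.20 and 158, with 6 arrays below and 2 above the nonamplified range (log2 fold change −1.30, SE 0.44, adjusted p = 0.0193). This call was lost under quantile normalization (−0.94, adjusted p = 0.0759) and after median centring (−0.89, adjusted p = 0.095). Its other tested probe set, 1422945_a_at, had −0.046 and did not pass, but was called lower on the hybridization controls (−0.47, adjusted p = 0.0264). Kif5a had no tested probe set, its 3 averaging 15.1, 43.7 and 44.9 on nonamplified arrays.

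The heterotrimeric motor of Kif3a, Kif3b and the adaptor Kifap3 drives transport into cilia, and its genes were measured at moderate intensities. Kif3b was lower at all 4 of its probe sets, between −1.35 and −0.41 on the log2 scale. At 1420987_at it measured 58.0, 103 and 121 on nonamplified and 16.7, 30.4 and 42.5 on amplified arrays. The smallest of the 4 differences, at 1450073_at, was −0.13 under quantile normalization and 0.0012 after median centring, and that at 1450074_at was −0.27 and −0.25, none of these 4 values called. Kif3a was lower at 2 of 3 tested probe sets, and at 1420375_at went from 77.3, 100.5 and 117 to 19.4, 28.9 and 46.8 (log2 fold change −1.34, SE 0.12). Kif3c, which pairs with Kif3a, was lower at both. Its call at 1448946_at (−0.43) was lost under quantile normalization (−0.056, adjusted p = 0.683) and after median centring (−0.027, adjusted p = 0.855). At 1434947_at it went from 116, 134 and 143 to 13.0, 28.7 and 36.4 (log2 fold change −1.78, SE 0.11). The falls at 1420987_at, 1420375_at and 1434947_at were at probe sets that passed the filter through their nonamplified values alone. These probe sets had to differ. The adaptor Kifap3, not a motor and not a member, had −1.23 (SE 0.21).

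A further probe set of Kif3a, 1436560_at, was too dim to be tested but had the widest range of any kinesin probe set on amplified arrays. It measured 28.8 to 43.4 on nonamplified arrays. On amplified arrays it measured 101, 3.96, 2.14, 1, 1710, 1, 1 and 1 for replicates 1 to 8. Replicates 1 and 5 lie above all nonamplified arrays, the other 6 below them, and 4 of those 6 are at the lowest listed value.

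Kif17, a motor of dendrites and cilia, fell at 1419827_s_at from 319, 418 and 508 to 41.3, 92.6 and 127 (log2 fold change −2.07, SE 0.18, adjusted p = 4.41e-08). The groups do not overlap. This probe set is of type _s_at, and whether it shares signal with other genes was not tested. Kif17 had a further probe set, 1419826_at, too dim to be tested (means of 7.73 without and 8.92 with amplification). Its dim probe set 1422762_at had −0.25 (adjusted p = 0.0384), which turned to 0.16 under quantile normalization or median centring, was not called with a pseudocount of 64 (adjusted p = 0.0551) or weights per group (adjusted p = 0.214), and lost the call on leaving out any 1 of 9 arrays (adjusted p = 0.0512 to 0.0733): amplified replicate 2, 4, 6 or 8, or nonamplified replicate 1, 3, 4, 5 or 8.

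Kifc2, a minus-end motor with its motor domain at the carboxyl end, stood against the others. At 1426493_a_at it measured 33.1, 64.8 and 116 on nonamplified arrays and 619, 771 and 1047 on amplified arrays. Each amplified array was above all nonamplified ones, and the log2 fold change was 3.27 (SE 0.18, adjusted p = 8.68e-11). Its other probe set, 1421312_a_at, was also higher, from 43.5, 53.2 and 64.7 to 38.1, 117 and 288 (log2 fold change 0.98, SE 0.29, adjusted p = 0.00796), but not past the threshold under scaling on the hybridization controls. Kifc3, another minus-end motor, measured 83.9, 96.8 and 109 against 22.1, 172 and 1186. Its amplified arrays lie 4 above and 4 below the nonamplified range, and its log2 fold change of 0.61 (SE 0.67) did not pass (adjusted p = 0.460).

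Of the kinesin-3 motors, Kif1b, which carries mitochondria and synaptic vesicle precursors, was lower at 4 of 5 tested probe sets, by up to −1.46 at 1451200_at. The smallest of these calls, −0.27 at 1451642_at, turned to 0.12 under quantile normalization and 0.14 with median centring, neither called, and was not called with weights per group (adjusted p = 0.0791). Kif1c was lower at 2 of 3, with the call at 1426325_at (−0.89) lost under quantile normalization (−0.50, adjusted p = 0.181) and after median centring (−0.48, adjusted p = 0.207), and Kif1a, a motor of synaptic vesicle precursors, at 0 of 2. The probe set 1450108_at of Kif1a had −0.29 and did not pass (adjusted p = 0.117), but did on the hybridization controls (−0.71, adjusted p = 0.00892) and without nonamplified replicate 4 (−0.39, adjusted p = 0.0172). Kif13a was lower at 2 of 4, and a further one, 1442252_at (−0.14), was called lower on the hybridization controls alone among the scalings (−0.56, adjusted p = 0.0391). One of its lower calls, at 1439532_s_at (−0.40), was near 0 under quantile normalization (0.0067) and median centring (0.0084). Kif16b, a motor of early endosomes, was lower at both of its tested probe sets. At 1429063_s_at of Kif16b, amplified replicate 5 measured 434 and the other 7 measured 7.21 to 57.7, against 113 to 153 without amplification, and this call was lost after median centring (−1.06, adjusted p = 0.0516). Kif13b was higher at 1 of 2 (0.29, adjusted p = 0.0210), which turned to −0.13 scaled on the hybridization controls, and was not called with weights per group (adjusted p = 0.227). Kif21a, a motor that restrains microtubule growth, was lower at both tested probe sets, of which 1447236_at (−0.62) lost its call under quantile normalization (−0.24, adjusted p = 0.217) and after median centring (−0.22, adjusted p = 0.278). Kif21b passed at neither. At 1435772_at of Kif21b the amplified arrays ran from 1 to 728 with a median of 10.9, against 43.2 to 72.5 without amplification (log2 fold change −0.20, SE 0.78). At 1455746_at of Kif13a they ran from 1 over 53.4 to 255, against 78.7 to 104 (−0.83, SE 0.55).

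**Figure D3:**
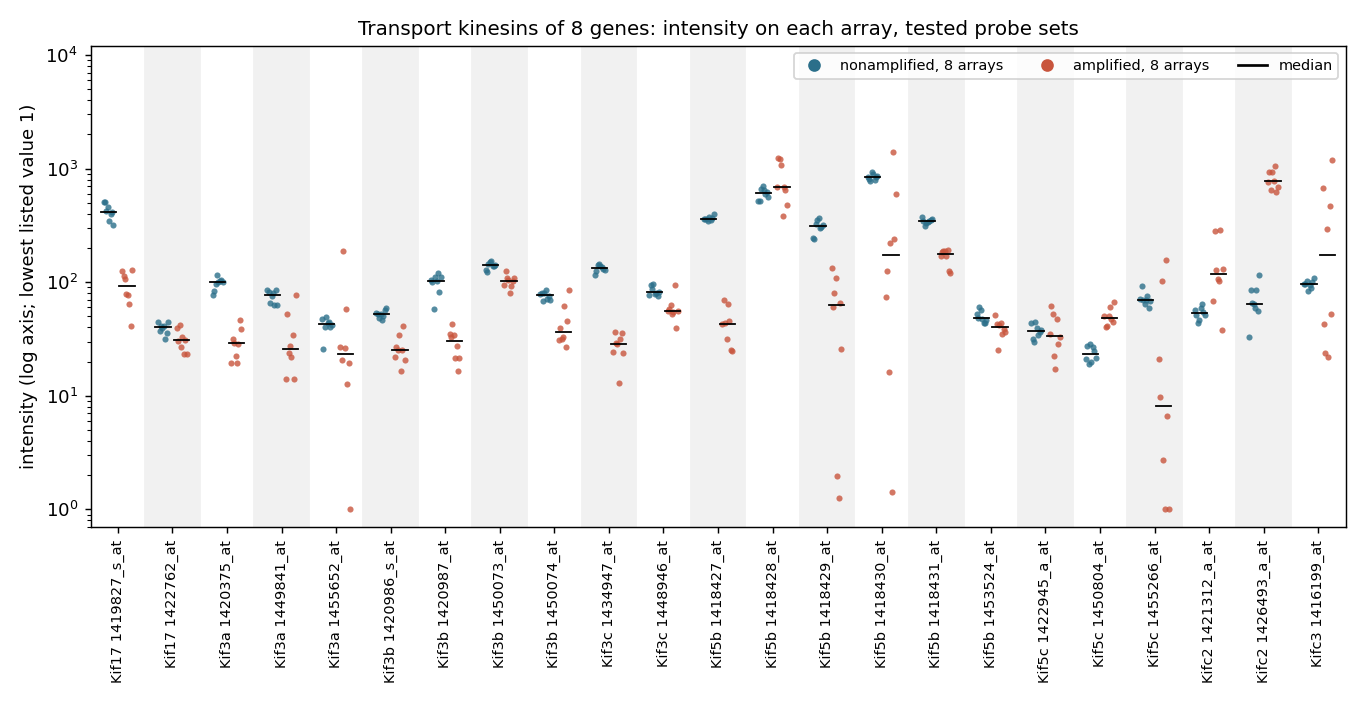
Intensity (log axis, lowest listed value 1) of the 23 tested probe sets of 8 transport kinesin genes on each array; blue points are nonamplified arrays, red points amplified arrays, 8 each, and black lines medians. Kifc2 1426493_a_at is the probe set here that lies far above its nonamplified level on every amplified array, and Kif5b 1418430_at spreads from 1.41 to 1395.

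Among the remaining members, Kif2a, a microtubule depolymerase of spindle poles and of growing neurites, was lower at all 4 tested probe sets. Of the 12 tested probe sets here, 2 were higher and 6 lower as deposited, 4 and 5 under quantile normalization, 4 and 4 after median centring, and 1 and 6 scaled on the hybridization controls. Of the 12, 4 passed the filter through their nonamplified values alone and were called lower: Kif2a 1450052_at, 1452499_a_at and 1454107_a_at and Kif24 1453947_at. These 4 had to differ in this direction, and their calls add nothing further. At 1452499_a_at Kif2a went from 241, 260 and 272 to 5.62, 15.3 and 114 (log2 fold change −2.94, SE 0.27, adjusted p = 7.28e-08). At 1454107_a_at it went from 198, 216 and 256 to 15.2, 23.8 and 35.5 (log2 fold change −2.57, SE 0.099). At 1450052_at it went from 265, 283 and 308 to 2.53, 24.2 and 166 (log2 fold change −2.63, SE 0.37). The groups are apart at these 3 probe sets. At 1450053_at the nonamplified arrays measured 302 to 337 and the amplified arrays 2.89 to 571, with 6 below and 2 above (log2 fold change −1.67, SE 0.61, adjusted p = 0.0266). This last call was lost without amplified replicate 1 (−1.43, adjusted p = 0.0529) or 3 (−1.44, adjusted p = 0.0535), and after median centring (−1.26, adjusted p = 0.0831).

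Kif12 was higher at 1453193_s_at, from 39.0, 47.7 and 52.7 to 110, 126 and 207 (log2 fold change 1.22, SE 0.11, adjusted p = 5.79e-08), and its other probe set, 1424910_at, did not pass (0.078). The latter was called higher under quantile normalization (0.40, adjusted p = 0.0123) and median centring (0.49, adjusted p = 0.00363) and turned to −0.34 on the hybridization controls, not called. Kif24, which caps centrioles and restrains cilia, was lower at both tested probe sets, by −1.26 and −0.42. The call at 1457074_at (−0.42) was lost under quantile normalization (−0.056, adjusted p = 0.709) and after median centring (−0.011, adjusted p = 0.947). Kif28 had 0.32 (adjusted p = 0.0252), turned to −0.095 scaled on the hybridization controls, was not called with weights per group (adjusted p = 0.278), and lost the call without nonamplified replicate 2 (0.27, adjusted p = 0.0541) or 6 (0.30, adjusted p = 0.0507). Kif7, the kinesin of Hedgehog signalling at the cilium tip, did not pass, at 98.5, 118 and 153 against 54.2, 131 and 520. Kif9 (0.26, adjusted p = 0.0911) did not pass either, but was called higher under quantile normalization (0.66, adjusted p = 0.000206), after median centring (0.67, adjusted p = 0.000234) and without amplified replicate 4 (0.33, adjusted p = 0.0316). Kif26a measured 57.8 to 73.0 on nonamplified arrays and 1 to 554 on amplified arrays. Its log2 fold change of −0.62 did not pass, but did without amplified replicate 2, the array at 554 (−1.11, adjusted p = 0.0401). Kif6, Kif26b and Kif27 had no tested probe set, and with 1 probe set each of Kif2a and Kif24 these 6 averaged 18.7 to 38.0 on nonamplified arrays. The 14 untested probe sets of transport kinesins averaged 7.73 to 48.3 there.

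Amplified arrays disagreed with each other about kinesins much more than nonamplified arrays did. The SD over the 8 arrays of a group, on the log2(intensity + 16) scale, was larger among amplified arrays for 72 of 76 tested kinesin probe sets, and for 90.4% of all tested probe sets. Its median was 0.48 amplified and 0.11 nonamplified for kinesins, against 0.51 and 0.13 for all tested probe sets. For mitotic kinesins the medians were 0.96 and 0.070 and for transport kinesins 0.43 and 0.14. An SD over 1 was found among amplified arrays at 8 of 19 mitotic and 11 of 45 transport probe sets, and at 27.7% of all tested probe sets. These are descriptions without a test.

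**Figure D4:**
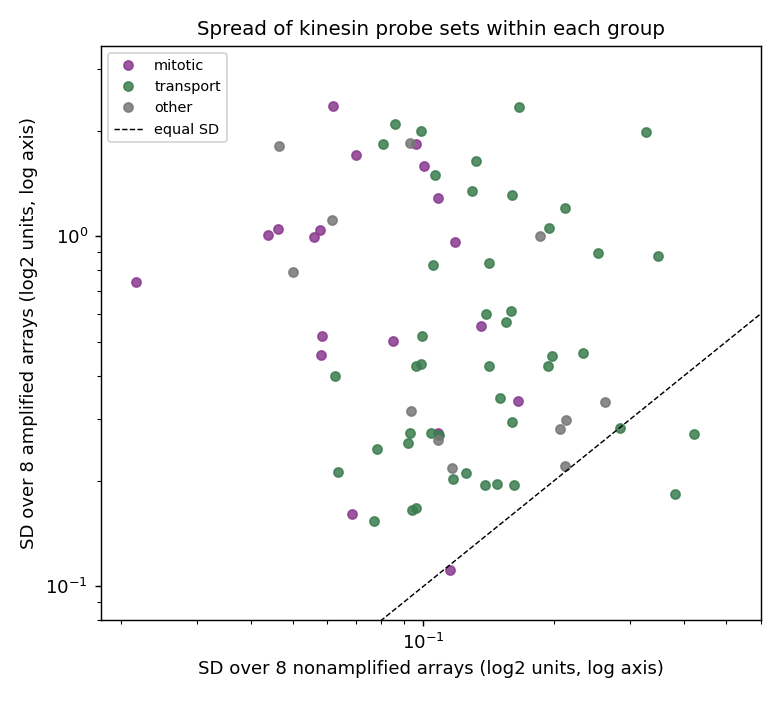
SD over the 8 amplified arrays against SD over the 8 nonamplified arrays (log2 units, both axes log) for the 76 tested kinesin probe sets, by role; the dashed line marks equal SDs. Of the points, 72 lie above the line.

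Some kinesin probe sets gave low values on part of the amplified arrays. A dropout means here that an array gave a value below its own 25th percentile for a probe set whose nonamplified mean ranked in the upper 50%. Of 64 kinesin probe sets in that upper range, 6 to 13 dropped out on each amplified array and 0 on each nonamplified array. On average this was 13.1% of them, near the 14.5% found for all probe sets. Dropouts on at least 4 of 8 amplified arrays were found at Kif20b 1440924_at (7 arrays), Kif23 1453748_a_at, Kif21b 1435772_at and Kif5c 1455266_at (5 each). Kif11 1435306_a_at, Kif13a 1455746_at and Kif26a 1447933_at had 4 each. A dropout at a probe set does not mean that the transcript was missed. On amplified replicate 5, for instance, Kif23 1453748_a_at measured 6.13, while Kif23 1455990_at measured 978. The nonamplified group defines the reference, so this measure counts departures from it. Over the 76 tested probe sets, which are not independent, Pearson r of an array with the nonamplified mean (the array itself left out) was 0.31 to 0.52 for amplified and 0.99 for each nonamplified array.

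Probe sets of 1 gene could disagree, for kinesins as for other genes. Of 23 kinesin genes with at least 2 tested probe sets, 3 (Kif22, Kif2c and Kif5c) were called both higher and lower, where 19.9% of all 5605 such genes were. Both Kif5c calls were at probe sets that passed the filter only through the group in which each is high, so they had to differ. The higher calls of Kif22 and Kif2c did not hold under all 3 scalings. The median range of log2 fold changes within a gene was 1.14 for the 23 kinesin genes and 1.35 for all 5605 genes. Each tested probe set was called lower for 10 of the 23 kinesin genes, and for 10.8% of all of these genes. In each of these 10 kinesin genes, at least 1 tested probe set passed the filter through its nonamplified values alone. Such a probe set had to differ in this direction, so no conclusion is drawn from this count. Among all 33 tested genes, Kifc2 and Kif28 were the 2 whose tested probe sets were all called higher. Kifc2 had 2 tested probe sets. Kif28 had only 1, whose call was lost with weights per group and with the replicate block.

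Partners of the kinesins, taken from lists chosen for this comparison and with 1 probe set per gene, went in both directions. Of 25 spindle partners 11 were higher, 6 lower and 8 did not pass, with a median log2 fold change of 0.27, where 13660 genes gave 3743 higher and 3387 lower and a median of −0.026. Plk1, the mitotic kinase, went from 944 ± 68.2 to 3894 ± 2807 (SD, n = 8 each), a log2 fold change of 1.61, and Ndc80, a kinetochore protein that holds microtubules, from 311 ± 13.0 to 88.7 ± 49.2 (−1.82). Birc5, the passenger protein survivin, and Kpna2, an importin that regulates spindle factors, had 0.49 and 0.27. By the same choice of probe set, 2 mitotic kinesin genes were higher and 6 lower of 10. The 2 were Kif22 and Kif2c, each at an _x_at probe set (0.45 and 0.73). Over all their tested probe sets, Kif22 had 1 higher and 2 lower calls and Kif2c 2 higher and 1 lower. Counted over all probe sets the spindle partners had 14 higher and 19 lower of 47.

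Of 29 tested transport partners (dynein, dynactin, kinesin light chains and cargo adaptors; 32 on the list) 5 were higher, 8 lower and 16 did not pass, with a median of −0.18. Dync1li1, a light intermediate chain of dynein, had 571 ± 31.2 without and 49.9 ± 35.5 with amplification (SD, n = 8 each), a log2 fold change of −3.29. Pafah1b1, the dynein regulator Lis1, had 355 ± 15.6 and 1875 ± 784, and rose by 2.23, and Dynll1, a dynein light chain, rose from 4278 to 9576 (1.15). Dync1h1, the dynein heavy chain, had −0.011 (adjusted p = 0.941). Transport kinesins by the same choice had 1 higher and 7 lower of 16.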

How the data were processed

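The table deposited by the authors gives an intensity, linear, for every probe set on each of 16 arrays. Per the labels' protocols, cRNA carrying biotin was prepared by Affymetrix one-cycle labelling, after PCR for the amplified arrays. The software that summarised and scaled the arrays is not given in the sources used here. Values were used as deposited, as log2(intensity + 16), so fold changes understate dim probe sets. The 64 control probe sets were left out, and 27022 of 45037 others were tested, above the 40th percentile of the mean log2 value (an intensity of 33.7). Groups came from the titles and were compared over the whole table with lmFit and eBayes of limma 3.58.1 (R 4.3.3), 2-sided and with no covariate; p-values were adjusted by Benjamini-Hochberg and called under 0.05. The fit was tested on simulated data. Values named are those of the 5 largest called changes and the 4 highest nonamplified means in each of the mitotic and transport lists (3 and 2 in the remainder), genes called both ways and probe sets with dropouts on at least 4 amplified arrays, with further members by their values. Partner genes were the 2 largest called changes and the 2 highest nonamplified means of each list, with symbols updated through RefSeq identifiers. The members and lists were chosen with earlier results of these data known. Alternatives were pseudocounts of 1 and 64, 3 scalings, no filter or a 60th percentile filter, leaving out _x_at and _s_at probe sets, weights per group, a replicate block and leaving out each array. Protein sequences were not used here, and a planned comparison with protein length was not run.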

Additional observations from a re-analysis of the deposited data

Results flagged for a closer look

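Of 152 combinations of a tested kinesin probe set and a group, 13 held an array standing apart from the other 7 by Dixon's ratio on the log2 scale, where chance flags about 1 in 20; 9 were amplified and 4 nonamplified arrays. On amplified arrays, Kif20b 1440924_at measured 715 on replicate 1 against 12.4 or less on the others. Kif16b was high on replicate 5 at both tested probe sets, 82.1 (others 14.9 to 30.4) and 434 (others 7.21 to 57.7). Kif2a 1452499_a_at was high on replicate 8 at 114 (others 5.62 to 22.4) and Kif12 1453193_s_at on replicate 2 at 207 (others 110 to 143). Low values stood out for Kif1b 1451200_at on replicate 8 (1, others 14.6 to 27.6), Kif21b 1421119_at on replicate 3 (1, others 49.4 to 113), Kif3c 1434947_at on replicate 5 (13.0, others 24.0 to 36.4) and Kif28 on replicate 7 (54.0, others 75.1 to 98.0). On nonamplified arrays each array that stood apart was low: Kif22 1437716_x_at on replicate 2 (1630 when rounded, others 1884 to 2092), Kif1b 1451200_at on replicate 6 (62.4, others 74.8 to 81.9), Kif3a 1455652_at on replicate 2 (26.0, others 40.02 to 48.9) and Kif12 1424910_at on replicate 1 (63.3, others 87.8 to 109).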

How the results depend on the processing

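Over all kinesins, 56 calls as deposited were 36 with the 60th percentile filter (29 lower), which tests 47 probe sets. Mitotic higher calls (3) were 1 under quantile normalization, 0 scaled on the hybridization controls, 5 without a filter and 1 without _x_at and _s_at probe sets. Transport calls (32) were 13 with the 60th percentile filter, 2 higher and 11 lower of 19 tested. Transport lower calls (28) were 18 under quantile normalization and 17 with median centring, and higher calls (4) were 1 scaled on the hybridization controls, where those of all kinesins (9) were 2. Higher calls among the remaining members (2) were 4 under quantile normalization or median centring and 1 scaled on the hybridization controls, without _x_at and _s_at probe sets, with weights per group or with the replicate block. Among all tested probe sets, higher calls (6677) were 8247 under quantile normalization, 10305 with median centring and 3536 scaled on the hybridization controls. They were 8569 of 45037 tested without a filter and 5567 of 23666 without _x_at and _s_at probe sets. With weights per group 5598 were higher, and with the replicate block 6359. Lower calls in the whole table (8866) were 8025 under quantile normalization and 6002 with median centring. On leaving out each array in turn, total calls were 54 to 57 for all kinesins, 15 to 17 for mitotic, 30 to 32 for transport and 7 to 9 for the remaining members, whose higher calls were 1 to 3. In the whole table these totals were 14743 to 15788 of 27022. With a pseudocount of 64 the median SD among amplified arrays was 0.29 in place of 0.48. With the replicate number as a block, 52 kinesin probe sets were called, and 16 mitotic ones as without it. Same-numbered arrays did not deviate together (correlations of −0.0078 to 0.018; 3 of 8 correlated best with their own number), so the numbers were not taken as pairs.

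The sign of the log2 fold change turned for 24 of 76 tested probe sets under at least 1 alternative, 9 of them called as deposited. The cause was not tested. Under quantile normalization the values were Kif22 1437716_x_at −0.38, Kif2c 1454221_a_at −0.12, Kif13a 1439532_s_at 0.0067, Kif13a 1442252_at 0.26, Kif13b 1436056_at 0.18, Kif17 1422762_at 0.16, Kif1a 1450108_at 0.12, Kif1b 1451642_at 0.12, Kif1b 1455182_at 0.055, Kif1c 1424746_at 0.29, Kif21b 1435772_at 0.10, Kif3a 1455652_at 0.033, Kif5b 1418428_at −0.21, Kif5b 1453524_at 0.14, Kif5c 1422945_a_at 0.36. With each array centred on its median they were Kif13a 1439532_s_at 0.0084, Kif13a 1442252_at 0.27, Kif13b 1436056_at 0.31, Kif17 1422762_at 0.16, Kif1a 1450108_at 0.12, Kif1b 1451642_at 0.14, Kif1b 1455182_at 0.17, Kif1c 1424746_at 0.37, Kif21b 1435772_at 0.21, Kif3a 1455652_at 0.063, Kif3b 1450073_at 0.0012, Kif5b 1453524_at 0.15, Kif5c 1422945_a_at 0.36. Scaled on the hybridization controls they were Kif2c 1432392_at −0.30, Kif2c 1454221_a_at −0.11, Kif13b 1433158_at −0.13, Kif1a 1421053_at −0.38, Kif21b 1421119_at −0.30, Kif5b 1418428_at −0.12, Kif12 1424910_at −0.34, Kif28 1444916_at −0.095, Kif7 1439637_at −0.15, Kif9 1420395_a_at −0.15. With a pseudocount of 1 they were Kif1a 1421053_at −0.78, Kif21b 1421119_at −0.12, and with 64 Kif1b 1455182_at 0.065, Kif1c 1424746_at 0.12, Kif21b 1435772_at 0.23. On leaving out each array in turn, values ran for Kif13b 1436056_at −0.24 to 0.021, Kif1a 1421053_at −0.057 to 0.28, Kif1b 1455182_at −0.59 to 0.087, Kif1c 1424746_at −0.32 to 0.16, Kif21b 1421119_at −0.014 to 0.40, Kif21b 1435772_at −0.70 to 0.077, Kif5c 1422945_a_at −0.13 to 0.044. Of the 103 probe sets, 27 were too dim to be tested.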
